A study of Caenorhabditis elegans with 2 samples.

Results

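LIN-39 occupancy was examined at 10 genes with known roles downstream of or alongside this Hox protein in the vulva, the mesoblast and the mid-body neurons of *Caenorhabditis elegans*. They are *egl-18*, *elt-6*, *eff-1*, *lin-3*, *lin-12*, *lag-2*, *lin-31*, *egl-17*, *hlh-8* and *egl-1*, listed by name and not by their signal, out of 19973 protein-coding genes on the nuclear chromosomes of build ce11 (Ensembl release 115). The choice was made with earlier results of these data known. A region belonged to a gene when its summit lay between 5000 bp upstream of the annotated 5' end and the 3' end.

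The data are chromatin immunoprecipitation sequencing (ChIP-seq) peak lists from L4 larvae, whole animals of both sexes pooled. The 2 biological replicates form the only group. Strain OP18 carries the insertion wgIs18 in an unc-119(ed3) III background, the target is described as eGFP-tagged LIN-39 while the antibody field names LIN-39, and the age of the animals is unknown beyond the L4 stage. The strain name lists no allele of the endogenous *lin-39* gene, and 1 control alignment served both replicates. The antibody itself is not named, so signal of the tagged protein alone and of tagged and endogenous LIN-39 together cannot be told apart. Since whole larvae were used, the cells in which a region was bound cannot be told apart.

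LIN-39 is a homeodomain transcription factor of the *C. elegans* Hox cluster that acts in the middle of the body. In the vulval precursor cells it keeps the cells from fusing with the surrounding epidermis and later acts together with the EGF, Notch and Wnt signals that set vulval fates. Hox proteins often bind DNA with PBC-class and MEIS-class homeodomain partners, which in the worm include CEH-20 and UNC-62. LIN-39 also acts in the postembryonic mesoblast and in neurons of the ventral cord, where Hox input bears on cell survival.

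The authors' thresholded list held 163 peaks, which were the 163 highest regions of a pooled list of 30000, and each replicate had its own list of 30000 regions. The signal of a region is its deposited signal value, in the units of the peak caller, for regions called against the control. It is given here as a rank and as a relative signal, which is its value over the median of the list it comes from. Depth cannot be read from these lists and is unknown. In the pooled list rank 163 had a relative signal of 2.34, rank 1000 had 1.68 and rank 5000 had 1.29. The pooled and replicate lists hold background as well as peaks, by their deposited names, so a region with a relative signal near 1 is not taken as a binding site.

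None of the 10 genes had a thresholded peak. *egl-17* had a region at rank 184 and *lin-12* had regions at ranks 687 and 940, while the highest region of the other 8 genes was at rank 2831. By the highest pooled relative signal the order was *egl-17* at 2.28, *lin-12* at 1.77, *lin-3* at 1.43, *egl-18* and *elt-6* at 1.27 with 1 region between them, *lin-31* at 1.2, *lag-2* at 1.10, *hlh-8* at 1.09, *egl-1* at 1.03 and *eff-1* at 0.979. Neighbours from *lin-3* down differed by less than the SD between replicates at the highest *lin-3* region, 0.205, and were not told apart. That SD comes from the replicate lists at 1 region and does not measure the spread of the pooled values. The order from *lin-3* down is therefore not relied on. The count of 0 of 10 with a thresholded peak stands beside 1.39% of all protein-coding genes and 1.38% of the 15636 genes whose windows were within the members' range of lengths, 6052 to 20519 bp. The count of 2 of 10 with a region among the 1000 highest stands beside 7.22% of all protein-coding genes and 7.28% of those with windows in that range. The count was 1 in the list of replicate 1, 0 in that of replicate 2, and 1 in the pooled list without the *egl-17* region, which lies at a tRNA gene. Every one of the 10 had a pooled region, as did 87.0% of all genes and 88.6% of those in the length range. With 10 genes chosen by name, these shares are a description and were not tested.

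The windows together covered 102750 bp and held 42 pooled regions, each counted once, of which 1 lay in the windows of both *egl-18* and *elt-6*. That is 4.09 regions per 10 kb, against 3.01 per 10 kb over the windows of all protein-coding genes. Their relative signals ran from 0.802 to 2.28 with a median of 1.02, and 19 of the 42 lay below the median of the whole list. By position, 20 summits lay in introns, 13 between genes, 5 in coding exons, 4 in 3' UTRs and 0 in 5' UTRs. For 16 of the 42 the nearest 5' end of a protein-coding gene was that of another gene. Shares over all pooled regions are not given for these positions, and the windows take in whole genes. The positions are therefore not read as a trait of the 10 genes.

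**Figure D1:**
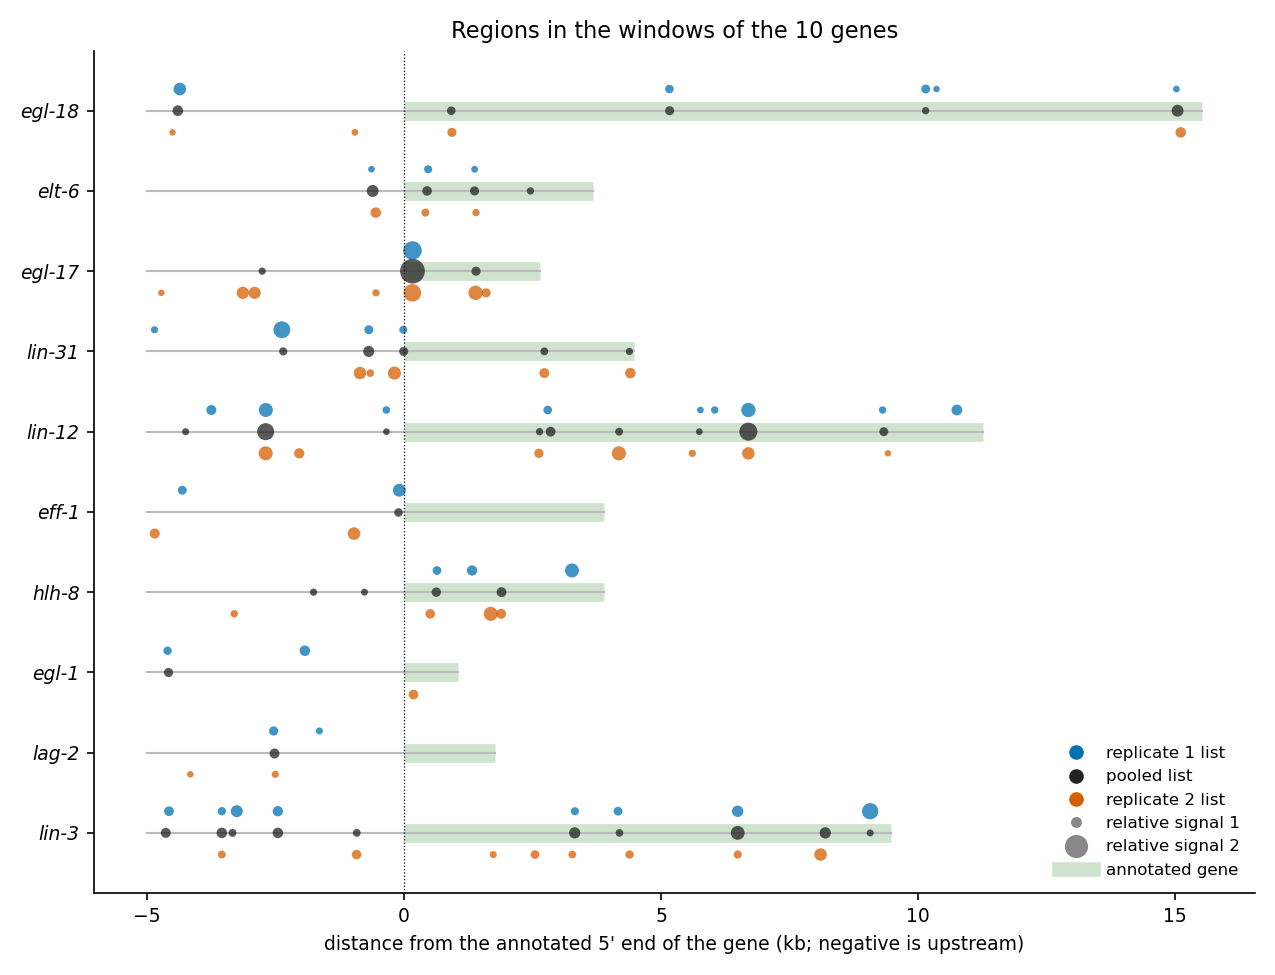
Regions of the pooled list (black, on the line), replicate 1 (blue, above) and replicate 2 (orange, below) in the window of each gene, by distance from the annotated 5' end in kb. The area of a point grows with relative signal, and the green bar is the annotated gene. Points in all 3 lists coincide at *egl-17*, 163 bp inside the gene, and at *lin-12*, 6696 bp inside and 2692 bp upstream. They also coincide at weaker regions, such as the one 3545 bp upstream of *lin-3*.

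*egl-17* had the highest region of the set. The gene encodes a fibroblast growth factor that guides the sex myoblasts and is expressed in vulval cells. It lies on the forward strand of chromosome X from 489685 to 492318. The summit lay 163 bp downstream of the annotated 5' end, in the intron after the first coding exon. The region had a relative signal of 1.81 at rank 763 in replicate 1 and of 1.73 at rank 1153 in replicate 2, a mean of 1.77 ± 0.0539 (SD, n = 2). Both replicates thus placed it in the upper part of their list and at nearly the same position. In the pooled list its relative signal of 2.28 at rank 184 lay just outside the authors' threshold, where the last peak had 2.34. Of the 17378 genes with a pooled region, 1.80% had a region at least as high in their window.

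An annotated tRNA gene, F38G1.t2 (tRNA-Asp), lies in the same intron on the opposite strand, from 20 to 91 bp downstream of that summit. The *egl-17* region was the only one of the 42 with a tRNA gene within 200 bp of its summit. A tRNA gene lay that close to 1.23% of the 163 thresholded peaks, 0.900% of the 1000 highest pooled regions and 0.357% of all pooled regions. The 72 bp of this tRNA gene recur exactly at 21 places on the nuclear chromosomes, this one included, so reads from within it cannot be placed by their sequence alone. Of the 21 copies, 4 had a pooled summit within 200 bp of their middle, and the regions at the other 3 were at ranks 8912, 13203 and 16463. Within the same distance 4 copies had a summit in replicate 1 and 5 in replicate 2, the *egl-17* copy included. Apart from that copy, the best rank was 3909 in replicate 1, with a relative signal of 1.39. In replicate 2 it was 24942, with 0.834. The part of the tRNA gene in the *egl-17* signal was not tested. Without this region the highest relative signal of the set was 1.77 and 1 gene, *lin-12*, kept a region among the 1000 highest.

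Sequence on each side of the tRNA gene is shown because it lies under the strongest region of the set, the first piece running from the start codon into the intron. Whether these pieces recur elsewhere in the genome was not tested. Capitals mark TAAT, the core bound by many homeodomain proteins, on either strand. Of the 3 matches within 100 bp of the summit, 2 overlap in the second piece and the other lies outside the printed stretches.
*egl-17*, chrX:489794-489867, forward strand: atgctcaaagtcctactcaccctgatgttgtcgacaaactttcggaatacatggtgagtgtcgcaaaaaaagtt
*egl-17*, chrX:489940-489998, forward strand: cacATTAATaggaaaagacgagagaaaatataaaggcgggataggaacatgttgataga

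The other regions of *egl-17* were weak in the pooled list. One lay 1399 bp inside the gene with a pooled relative signal of 1.03, and had 1.48 at rank 2760 in replicate 2 but no matching region in replicate 1. The other lay 2760 bp upstream with 0.853 in the pooled list and 1.29 in replicate 2, again unmatched in replicate 1. Replicate 1 had 1 region in the *egl-17* window and replicate 2 had 7. The strong intronic region was thus the only one that the replicates shared here.

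*lin-12* encodes a Notch receptor, which sets the secondary vulval fate and acts in the choice between anchor cell and uterine precursor. It lies on the reverse strand of chromosome III from 9060221 to 9071472 and its window held 9 pooled regions. The first of its 2 higher regions lay 6696 bp inside the gene, in coding exon 5, with a relative signal of 1.47 at rank 2909 in replicate 1 and 1.32 at rank 4892 in replicate 2, a mean of 1.40 ± 0.100 (SD, n = 2). The other lay between genes, 2692 bp upstream of *lin-12*, with a relative signal of 1.45 at rank 3109 in replicate 1 and also 1.45 at rank 3091 in replicate 2, a mean of 1.45 ± 0.00259 (SD, n = 2). Their pooled relative signals were 1.77 and 1.69. Each replicate on its own placed neither region among its 1000 highest, so the ranks of 687 and 940 hold for the pooled list alone. The 5' end nearest to the upstream region was that of *F02A9.7*, 1475 bp away. Of the genes with a pooled region, 5.78% had a region at least as high as the *lin-12* maximum.

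The upstream *lin-12* region is shown as the strongest region of the set that lies between genes, read in the direction of *lin-12* from 100 bp on one side of the summit to 100 bp on the other. Capitals mark TAAT on either strand, found at 3 places of which 2 adjoin.
*lin-12*, chrIII:9074064-9074264, reverse strand: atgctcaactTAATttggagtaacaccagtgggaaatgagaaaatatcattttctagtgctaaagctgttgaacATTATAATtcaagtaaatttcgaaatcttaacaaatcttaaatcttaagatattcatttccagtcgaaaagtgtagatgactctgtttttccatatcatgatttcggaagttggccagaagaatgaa

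Of the remaining 7 regions of *lin-12*, the pooled relative signals ran from 0.802 to 1.09. One of them, 344 bp upstream of the 5' end, had 0.805 in the pooled list and 0.886 in replicate 1, with no match in replicate 2. The region 4182 bp inside the gene ranked 2977 in replicate 2 with a relative signal of 1.46, and had no match in replicate 1. Its pooled relative signal was 0.912.

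*lag-2* encodes a DSL ligand of the Notch receptors and lies on chromosome V from 3188343 to 3190115. Its only pooled region lay 2539 bp upstream with a relative signal of 1.10 at rank 10532. It was found in both replicates, at 1.03 in replicate 1 and 0.841 in replicate 2 (0.937 ± 0.135, SD, n = 2). The replicates thus lay on either side of the list median.

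*lin-3* encodes the epidermal growth factor that induces the vulva, and lies on chromosome IV from 11054308 to 11063768. With 10 pooled regions its window held the most of the set, 6.92 per 10 kb. Its highest, 6489 bp inside the gene in an intron, had a pooled relative signal of 1.43 at rank 2831. The replicates placed it on both sides of their medians, at 1.23 in replicate 1 and 0.942 in replicate 2 (1.09 ± 0.205, SD, n = 2). A region 3318 bp inside the gene lay 38 bp upstream of the 5' end of a shorter annotated *lin-3* transcript, with 1.21 in the pooled list, 0.935 in replicate 1 and 0.901 in replicate 2. The strongest *lin-3* regions of the single replicates were at other positions, 9065 bp inside the gene with 1.63 at rank 1550 in replicate 1 and 8100 bp inside with 1.32 at rank 4955 in replicate 2. The window also held the 5' ends of *F36H1.12* and *F36H1.3*, and 5 of the 10 pooled summits lay upstream of *lin-3*, of which 4 were inside those genes.

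*lin-31* encodes a forkhead transcription factor that acts below the EGF pathway in the vulval precursor cells, and lies on chromosome II from 3982549 to 3987029. Of its 5 pooled regions the highest lay 687 bp upstream with a pooled relative signal of 1.2 at rank 7387, and had 1.02 in replicate 1 and 0.897 in replicate 2 (0.961 ± 0.0900, SD, n = 2). A region at the 5' end itself, 8 bp upstream, had 1.02 in the pooled list and 0.929 in replicate 1. The replicate 2 region matched to it had 1.37, and the mean of the replicates was 1.15 ± 0.309 (SD, n = 2). The summit of that replicate 2 region lay farther upstream, within the 200 bp allowed for a match. Replicate 2 thus had no summit at the 5' end itself, and the mean joins different positions. The strongest region of replicate 1, at rank 1309 with 1.68, matched a pooled region 2351 bp upstream with a relative signal of 0.944, and replicate 2 had no match. For *lin-31* the highest region therefore differed between all 3 lists.

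*egl-18* and *elt-6* encode GATA factors that act below LIN-39 in keeping vulval precursor cells from fusing, and lie next to each other on chromosome IV, *egl-18* from 1902322 to 1917840 and *elt-6* from 1917977 to 1921643. They shared their highest pooled region, which lay in the 3' UTR of *egl-18* and 611 bp upstream of the 5' end of *elt-6*, with a relative signal of 1.27 at rank 5395. The replicates gave it 0.8 at rank 27040 in replicate 1 and 1.15 at rank 9131 in replicate 2 (0.976 ± 0.250, SD, n = 2). The region 4401 bp upstream of *egl-18* had 1.16 in the pooled list, 1.33 in replicate 1 and 0.784 in replicate 2 (1.06 ± 0.386, SD, n = 2). In both cases the replicates fell on opposite sides of the median. Inside *elt-6*, regions 447 and 1370 bp from the 5' end were found in both replicates with means of 0.933 ± 0.00612 and 0.839 ± 0.0365 (SD, n = 2), below the median in each. The density was 2.44 regions per 10 kb for *egl-18* and 4.62 for *elt-6*.

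*eff-1* encodes the fusion protein that merges epidermal cells, including vulval precursor cells that leave the vulval fate. The gene lies on chromosome II from 8346684 to 8350563. Its only pooled region lay 109 bp upstream of the 5' end, with a relative signal of 0.979 at rank 16004. Replicate 1 had it at 1.35 and rank 4429, and replicate 2 had no match. The strongest *eff-1* region of replicate 2 lay 974 bp upstream, with 1.33 at rank 4730. Its window held no pooled summit within the gene. The nearest thresholded peak of the whole set lay closest to *eff-1*, 12526 bp outside its window and at rank 52, and the 5' end nearest to that peak was that of *hel-1*.

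*hlh-8* encodes the Twist homologue of the M lineage, from which the sex muscles arise, and lies on X from 8116457 to 8120351. Of its 4 pooled regions, the highest lay 1895 bp inside the gene in an intron with 1.09 at rank 10794, at 1.10 in replicate 2 and unmatched in replicate 1. The region 626 bp inside the gene was found in both, at 0.994 in replicate 1 and 1.07 in replicate 2 (1.03 ± 0.0514, SD, n = 2). The strongest regions of the replicates lay 3265 bp inside the gene with 1.44 in replicate 1 and 1685 bp inside with 1.45 in replicate 2. These 2 similar values belonged to different positions.

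*egl-1* encodes the BH3-only protein that starts programmed cell death, and lies on V from 14431308 to 14432359. Its only pooled region lay 4599 bp upstream with 1.03 at rank 13711, nearest to the 5' end of *F23B12.4*. Replicate 1 had it at 0.959, and replicate 2 had no match. The single region of replicate 2 in this window lay 181 bp inside the gene with 1.08 at rank 11478.

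**Figure D2:**
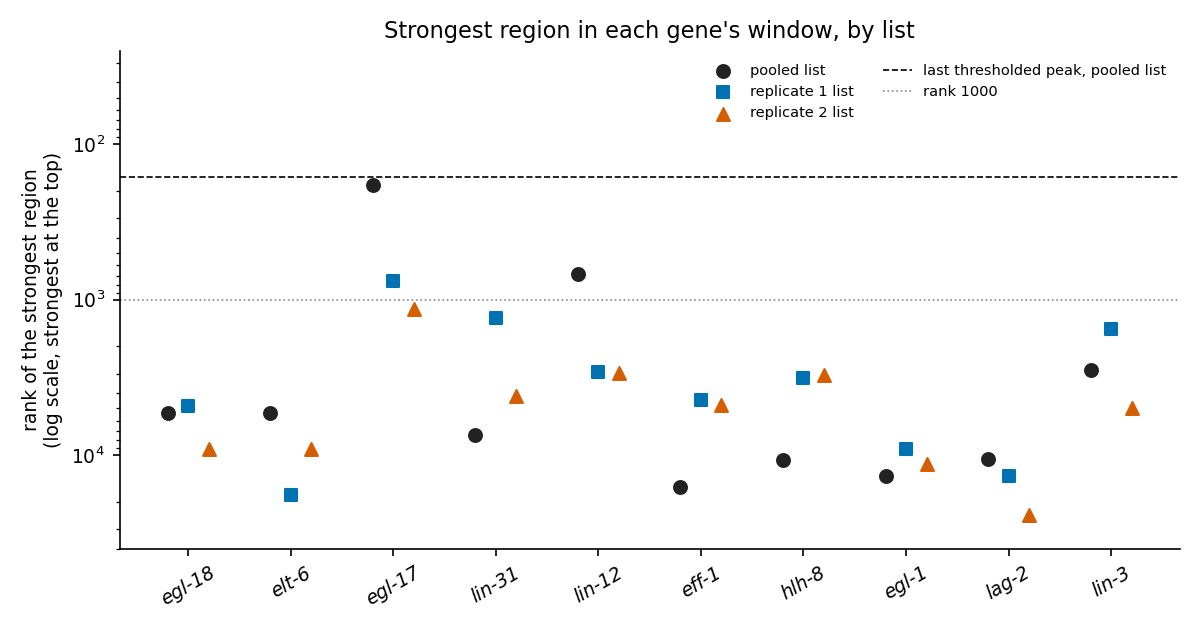
Rank of the strongest region in each gene's window in the pooled list (circles), replicate 1 (squares) and replicate 2 (triangles), on a log axis with the strongest at the top. The dashed line is the last thresholded peak at rank 163 and the dotted line rank 1000. The pooled values of *egl-17* and *lin-12* lie above rank 1000, and so does the *egl-17* value of replicate 1.

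Agreement between the replicates rested on few regions. Of the 42 pooled regions, 17 were found in both replicate lists, with summits that were each other's nearest and at most 200 bp apart, 11 in replicate 1 only, 10 in replicate 2 only and 4 in neither. That is 40.5% (95% Wilson interval 27 to 55.5%, counting error only), against 28.9% of all 30000 pooled regions, which lies inside the interval. Only 3 of the 17 were above the median of both replicates, the *egl-17* intron and both *lin-12* regions, and 7 were below it in both. Across the 17 shared regions the rank correlation between the replicates was 0.338 (Spearman, a description, both lists sharing the control), and it was 0.206 without the *egl-17* region. Over the 8668 shared regions of the whole pooled list it was 0.104. Of the shared regions, 17.6% at the 10 genes were above the median of both replicates, against 34.7% of all 8668. The first share rests on 3 of 17 regions, and the difference was not tested.

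**Figure D3:**
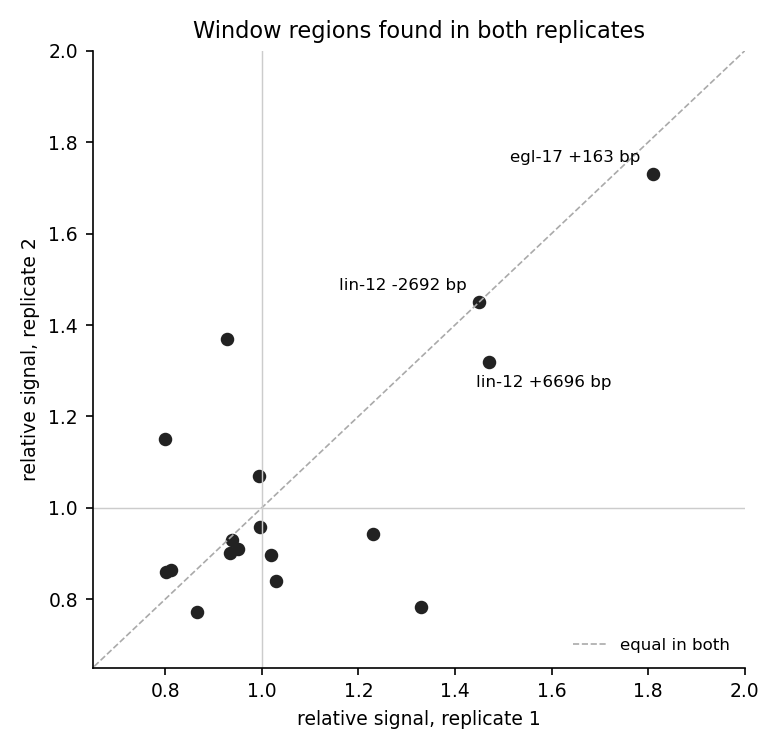
Relative signal in replicate 1 (horizontal) and replicate 2 (vertical) of the 17 regions in the windows that were found in both replicates. Grey lines mark the median of each list and the dashed line equal values. The 3 labelled regions, at *egl-17* and *lin-12*, are the only ones above the median of both.

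The shares of summits with each motif lay near those of the whole pooled list, apart from the full composite site, which rested on 1 region. The pattern TGATNNAT, the core of the composite site for Hox proteins and PBC partners, was present on either strand within 100 bp of 7 of the 42 summits, 16.7%, against 16.9% of all pooled regions. The full composite site was present at 1 of 42, 2.38%, against 5.06%. TAAT, which can overlap the other patterns, was present at 37, 88.1%, against 88.5%, and GAGAGA at 5, 11.9%, against 10.5%. The median GC content of these stretches was 33.6%, against 33.3% in all pooled regions. The *egl-17* region and both of the higher *lin-12* regions had no TGATNNAT within 100 bp of the summit.

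The single summit with a full composite site was that of *eff-1*, 109 bp upstream of the gene. A further composite site lay just outside, 105 bp from the same summit. The region of that summit had a pooled relative signal of 0.979 at rank 16004 and no match in replicate 2. It is therefore not taken as a binding site. Both sites are in capitals below, shown because no others in the windows lay so close to a pooled summit. They lie 179 and 214 bp upstream of the 5' end and read on the reverse strand, so the forward strand shows their complements.
*eff-1*, chrII:8346455-8346665, forward strand: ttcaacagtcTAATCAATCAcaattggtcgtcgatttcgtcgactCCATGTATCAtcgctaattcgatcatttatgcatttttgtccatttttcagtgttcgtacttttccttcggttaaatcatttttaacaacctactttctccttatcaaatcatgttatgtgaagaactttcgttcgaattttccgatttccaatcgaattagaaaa

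Over the whole windows there were 22 composite sites, 2.14 per 10 kb, against 2.34 per 10 kb over the nuclear chromosomes. *eff-1* had the highest density with 5 sites, 5.63 per 10 kb, followed by *lin-12* with 6, or 3.69 per 10 kb, and *egl-1* with 2, or 3.30 per 10 kb. *egl-17* and *lag-2* had 0. Of the 22 sites 1 lay within 100 bp of a pooled summit, the *eff-1* site above. The same share over all composite sites of the nuclear chromosomes is not given. The count is therefore not read as a trait of the 10 genes. At *lin-12* the site nearest to a higher region lay 386 bp from the summit of the upstream region. At *egl-1* a site 137 bp upstream of the gene lay 4462 bp from the nearest pooled summit. Sites of *eff-1* that lay away from its summit and the *lin-12* site are given below in the direction of the site, in capitals with 10 bases on each side, to show how they differ in the free positions.
*eff-1*, 2251 bp upstream, chrII:8344418-8344447, forward strand: aatcgaaaaaTGATTTATGAtgttctgact
*eff-1*, 2182 bp upstream, chrII:8344487-8344516, reverse strand: taaattgaaaTGATATATTAgtcatctatg
*eff-1*, 1605 bp inside the gene, chrII:8348274-8348303, reverse strand: cacgaattctTGATGCATTAtggaagaaga
*lin-12*, 3078 bp upstream, chrIII:9074535-9074564, reverse strand: ttacatagatTGATTTATTGccctaaaaat

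**Figure D4:**
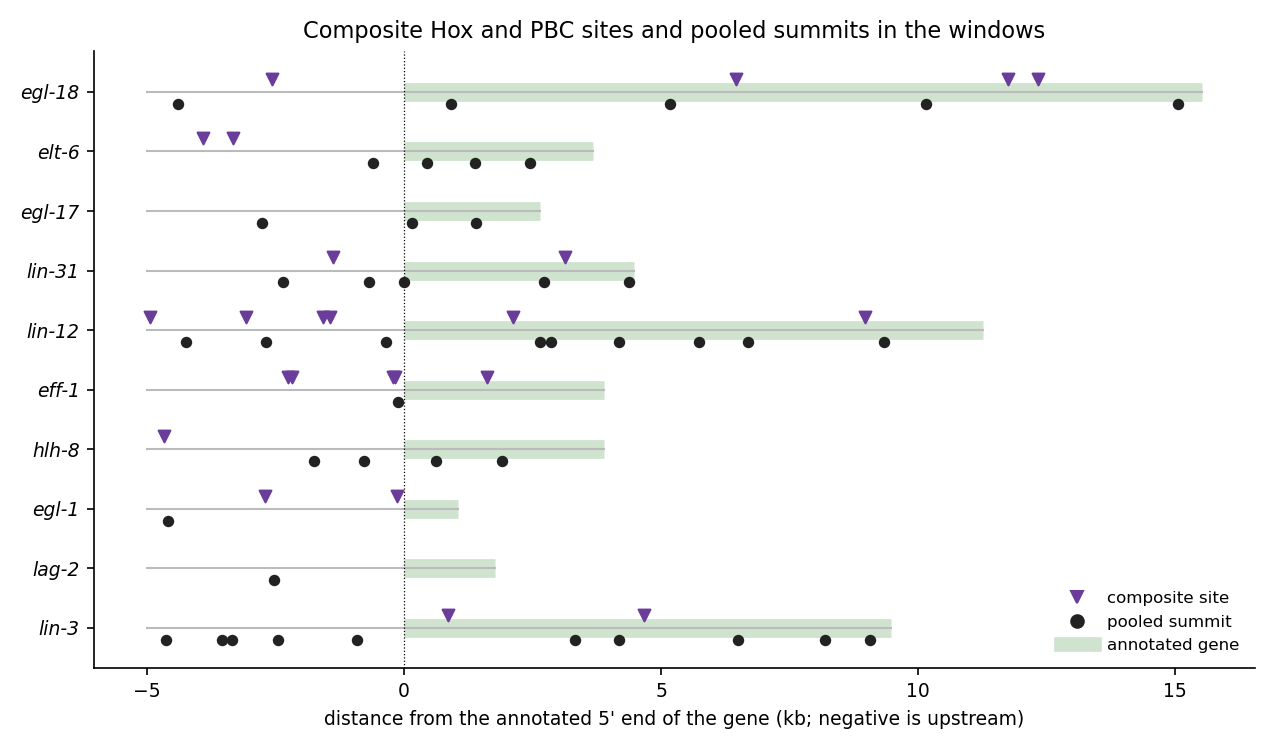
Composite Hox and PBC sites (triangles) and pooled summits (circles) in the window of each gene, by distance from the annotated 5' end in kb, with the annotated gene in green. The *eff-1* sites 179 and 214 bp upstream lie 70 and 105 bp from its pooled summit. The region of that summit had a relative signal of 0.979 at rank 16004. *egl-17* and *lag-2* have no site.

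The other genes of these pathways were described in the same way in 5 lists, 95 genes in all. These lists too were chosen with earlier results of these data known, so their shares are a description and were not tested. A thresholded peak lay in the window of 1 of 11 Hox genes and cofactors, 1 of 16 mesoblast and sex muscle genes, 0 of 33 vulval genes, 0 of 23 neuron and cell death genes and 0 of 12 epidermal and fusion genes. Over all protein-coding genes the share was 1.39%. A region among the 1000 highest lay in the windows of 18.2% of Hox genes and cofactors (2 genes), 18.8% of mesoblast genes (3), 9.09% of vulval genes (3), 8.70% of neuron genes (2) and 33.3% of epidermal genes (4), against 7.22% of all protein-coding genes. The vulval and neuron lists thus lay near the share of all genes, and the other lists rest on 2 to 4 genes each. The share of all genes was not matched to the lists on window length. The median window of all genes was 7027 bp, while the regions counted for *ajm-1*, *sem-2* and *unc-62* lay 29286, 11094 and 10762 bp inside these genes. Over genes with a pooled region, the median of the highest relative signal per gene was 1.23 over the 10 genes, 1.35 over Hox genes and cofactors, 1.33 over mesoblast genes, 1.19 over vulval genes, 1.14 over neuron genes, 1.44 over epidermal genes and 1.17 over all protein-coding genes.

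The cofactor *unc-62*, the MEIS-class partner of Hox proteins, had the strongest region of the lists, at rank 18 with a relative signal of 2.88 in replicate 1 and 5.46 in replicate 2 (4.17 ± 1.82, SD, n = 2). It lay 10762 bp inside *unc-62*, in an annotated 5' UTR, with *T28F12.1* as the gene of the nearest 5' end, 4810 bp away. *ceh-20*, which encodes the PBC-class partner, had a region 930 bp upstream at rank 715 with 1.68 and 1.86 in the replicates (1.77 ± 0.130, SD, n = 2). *sma-9*, which encodes a Schnurri homologue that patterns the M lineage, had the other thresholded peak, in an intron at rank 48 with 2.64 and 2.91 (2.78 ± 0.190, SD, n = 2). The *egl-17* region, the highest of the 10 genes, had a mean of 1.77 ± 0.0539 (SD, n = 2), within the SD of that of *ceh-20*.

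Among the vulval genes, *mpk-1*, the MAP kinase of the EGF pathway, had an intronic region at rank 170 with 1.95 ± 0.318, *let-60*, which encodes Ras, one 943 bp upstream at rank 301 with 1.62 ± 0.121, and *bar-1*, which encodes a beta-catenin, one 4807 bp upstream at rank 477 with 1.53 ± 1.02 (SD, n = 2). The *bar-1* region was strong in replicate 1 alone, at 2.25, against 0.807 in replicate 2. The mesoblast genes *sem-2*, at rank 329, and *let-381*, at rank 694, had 1.70 ± 0.127 and 1.63 ± 0.0860, and *ced-4* of the cell death pathway and *ida-1* of dense-core vesicles had 1.62 ± 0.201 and 1.53 ± 0.441 (SD, n = 2). The epidermal list held *egl-27* at rank 219, *nhr-25* at 287, *vab-3* at 309 and *ajm-1* at 546, with means of 2.07 ± 0.608, 1.83 ± 0.112, 1.72 ± 0.229 and 1.60 ± 0.675 (SD, n = 2). The *ajm-1* region had 2.08 in replicate 1 and 1.12 in replicate 2. That of *ced-4* lay in its 3' UTR, 86 bp upstream of the 5' end of *C35D10.8*. For *bar-1*, *sem-2*, *let-381* and *ajm-1* the 5' end nearest to the region was likewise that of another gene. These were *F43E12.1*, *osr-1*, *hrpk-1* and *C25A11.2* in that order. Of the named genes, *unc-62*, *sma-9*, *egl-27*, *mpk-1* and *nhr-25* had means above the 1.77 of *egl-17*.

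**Figure D5:**
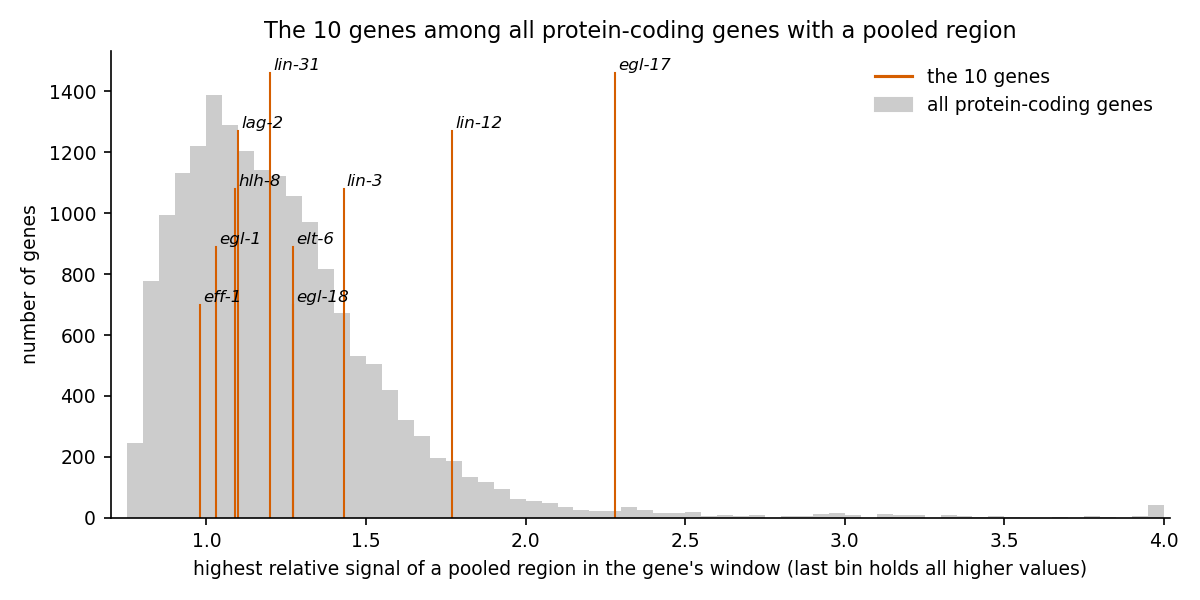
Highest relative signal of a pooled region in the window of each of the 10 genes (orange lines, whose heights only separate the labels) over the distribution for all 17378 protein-coding genes with a pooled region (grey bars, number of genes). *egl-17* at 2.28 and *lin-12* at 1.77 lie in the upper tail, and *eff-1* at 0.979 is the lowest of the 10.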

How the data were processed

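ChIP-seq of LIN-39 in L4 larvae gave 2 biological replicates, numbered by the labels, with a library size range of 150 to 350 bp. Per the deposited descriptions, regions were called on ce11 for each replicate and for both pooled, against 1 control alignment, and the thresholded list passed an irreproducible discovery rate threshold. Aligner, caller and threshold were not given in the sources used here. Of the deposited columns, the signal (column 7) was used as rank and as ratio to the list median. The deposited q column reached below 0 in the pooled list and was taken as a score and not used. Among the 42 window regions it was highest at the *egl-17* intron, at 0.0919. It was lowest at the *lin-12* regions 6696 bp inside and 2692 bp upstream, at -0.222 and -0.215. What this difference means was not tested. The ce10 lists were not used, since no coordinates were converted.

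Windows, distances and features came from Ensembl release 115, whose chromosome lengths no region exceeded, and sequences from the RefSeq copy of the same build, WBcel235. Both strands were searched for motifs up to 100 bp from a summit. Symbols matched for 95 of 96 list genes. The genes and lists were chosen with earlier results of these data known. All 10 genes are named, and from each list at most 5 genes with a thresholded peak or a region among the 1000 highest. With 1 group nothing was tested between groups, and no p-value is given. Regions are not replicates of the experiment. The window, matching and motif functions recovered planted answers in simulated data. The work used matplotlib 3.10.9, scipy 1.17.1, pandas 2.3.3 and numpy 2.4.6 under Python 3.11.15.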

Additional observations from a re-analysis of the deposited data

How the results depend on the processing

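Of 43 recomputed values 34 stayed within 1.5 times the reported count, the Wilson interval of the reported share or 1 SD of the reported signal. The count of genes with a thresholded peak was 0 with windows of 2000 or 10000 bp upstream, with any overlap of the interval and with the upper part of the thresholded list. None of these settings could have given another count, since the nearest thresholded peak lay 12526 bp outside the windows. They are included in the 34 all the same. The number of genes with a region among the 1000 highest was 2, and became 1 for the 500 highest, 0 to 1 when the list of a single replicate was used and 1 without regions within 200 bp of a tRNA gene, a setting chosen after seeing the data. The highest relative signal was 2.28, and became 1.73 to 1.81 with a single replicate and 1.77 without regions at tRNA genes. The single-replicate values are ratios to the medians of other lists than the pooled value. Their lower size is therefore not read as an effect of leaving out a replicate. The number of regions with TGATNNAT was 7, and became 11 with windows of 10000 bp and 11 with a search within 200 bp. The share of regions found in both replicates ran from 28.6% with summits within 100 bp to 41.9% with windows of 2000 bp. The share over all pooled regions, 28.9%, is given for summits within 200 bp only. It is therefore not a match for the 28.6%. The cause of the changes between settings was not tested, beyond the fewer or wider regions that each setting takes. No paired analysis was possible because the series has 1 group. Depth is unknown, so whether a weak region reflects few reads cannot be told from these lists.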
